A study of Arabidopsis thaliana with 12 samples.

Results

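The question taken up here is whether lincomycin altered transcript levels by a different amount in abi4-102 seedlings than in Col-0 seedlings of Arabidopsis thaliana. The quantity is a difference between responses: the value with lincomycin minus the value without it in abi4-102, minus the same in Col-0. Arrays were assigned by their titles, and 8 of the 12 arrays of the series enter the contrast, 2 in each of 4 groups. The groups are abi4-102 with lincomycin, abi4-102 without lincomycin, Col-0 with lincomycin and Col-0 without lincomycin. The mutant is in the Col-0 ecotype and stands for a single allele. The other 4 arrays, of gun1-1, serve for the estimate of spread and for gene sets chosen by the gun1-1 response. All seedlings were 5 days old, grown at 21 °C in light and dark cycles at 20 µmol per square metre and second on Murashige Skoog medium with 1% sucrose, and whole seedlings were taken. The lincomycin concentration is 220 µg/ml by the treatment protocol and 200 µg/ml by the source name.

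Lincomycin blocks translation on plastid ribosomes, and seedlings germinated on it keep plastids that cannot make their own proteins. Nuclear genes for photosynthesis are then held low by signals from plastid to nucleus, called retrograde signalling. ABI4 is a transcription factor of the AP2 family, known from abscisic acid and sugar responses of seedlings and long discussed as a nuclear component of retrograde signalling. A gene whose repression needs ABI4 would fall less in the mutant, which on the scale used here is a difference above 0. A difference above 0 also arises where a gene rises more in the mutant, or rises there and falls in Col-0, so both responses are given with it.

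Values are RMA log2 values of Affymetrix ATH1 arrays, in which 1 unit is a 2-fold step, and every group mean rests on n = 2 arrays. Array medians lay between 5.44 and 5.52, and replicates correlated across probe sets at 0.990 to 0.996. The median absolute difference between replicates was 0.160 in abi4-102 with lincomycin, 0.115 in abi4-102 without it, 0.148 in Col-0 with lincomycin and 0.103 in Col-0 without it. The labels do not say whether replicates were separate cultures, and every p-value reflects only the spread between these arrays, which may be technical. ABI4 itself is not analysed here, so it gives no check of the genotype labels. Among tissue markers, the root genes PYK10, EXPA7 and EXPA18 had differences of -0.22, -0.18 and -0.22, and the stomatal gene FAMA had -0.13, all 4 with intervals that include 0. Only 3 of 6 listed root loci and 1 of 5 listed epidermal and stomatal loci were read. The median standard error of the root genes was 0.43, so these markers cannot show that tissue make-up was unchanged. In whole seedlings, fewer cells of a type and less RNA per cell cannot be told apart.

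No probe set passed the test for a difference of response. Of 22746 probe sets, 0 (0%) had a Benjamini-Hochberg adjusted p under 0.05 in limma, and the smallest adjusted p was 0.0767, shared by 8 probe sets, of which 7 had a difference above 0. At an unadjusted p under 0.05 there were 2230 probe sets, 9.8% of those tested, 1296 with a difference above 0 and 934 below. Leaving out abi4-102 without lincomycin replicate 2 lowered that number to 1219. Leaving out Col-0 with lincomycin replicate 1 gave 4 calls at the adjusted threshold, and leaving out Col-0 without lincomycin replicate 1 gave 1. A fit whose prior variance followed intensity, estimated robustly, called 9 probe sets (0.0396%), 7 higher and 2 lower, of which 4 name 1 gene.

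For most probe sets the estimates were narrow. The median difference was 0.00, the median standard error (SE) 0.20, and the median 95% confidence interval reached 0.44 to either side. For 19904 probe sets, 87.5%, the whole interval lay within 2-fold in either direction. That held for 913 of 989 annotated pseudogenes, which are mostly dim. Among genes described below, it held for only 29 of 44 nuclear genes of plastid function and 15 of 43 plastid-encoded photosynthesis genes. An estimate of at least 2-fold was found for 185 probe sets, 103 above 0 and 82 below. The full range ran from -2.85 to 2.70.

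A second view needs no model. In each genotype, either array with lincomycin can be set against either array without it, which gives 4 responses per genotype. The 4 responses of abi4-102 lay wholly above or wholly below the 4 of Col-0 for 5805 probe sets, 25.5% of all. The responses ran in opposite directions in every pairing for 993, or 4.37%. Counts of genes with separated responses below are to be read against these shares.

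Genes were ranked by p among probe sets that name 1 gene alone. That leaves out 5 of the 8 probe sets at the smallest limma adjusted p of 0.0767, which are unnamed here. Among those 5 is the only 1 of the 8 with a difference below 0. Of the 10 genes with the smallest p of a difference above 0, 7 had a response below 0 in abi4-102 and all 10 had one below 0 in Col-0. Of the 10 genes with the smallest p of a difference below 0, 7 had a response below 0 in abi4-102 and 2 in Col-0. In all 20 genes the responses separated. Their choice by p favours this, and it also favours the signs of the responses given here. Differences among the 10 above 0 ran from 0.98 to 1.89, with limma adjusted p of 0.0767 to 0.149, and those below 0 from -2.85 to -0.64, with adjusted p of 0.135 to 0.210.

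**Figure D1:**
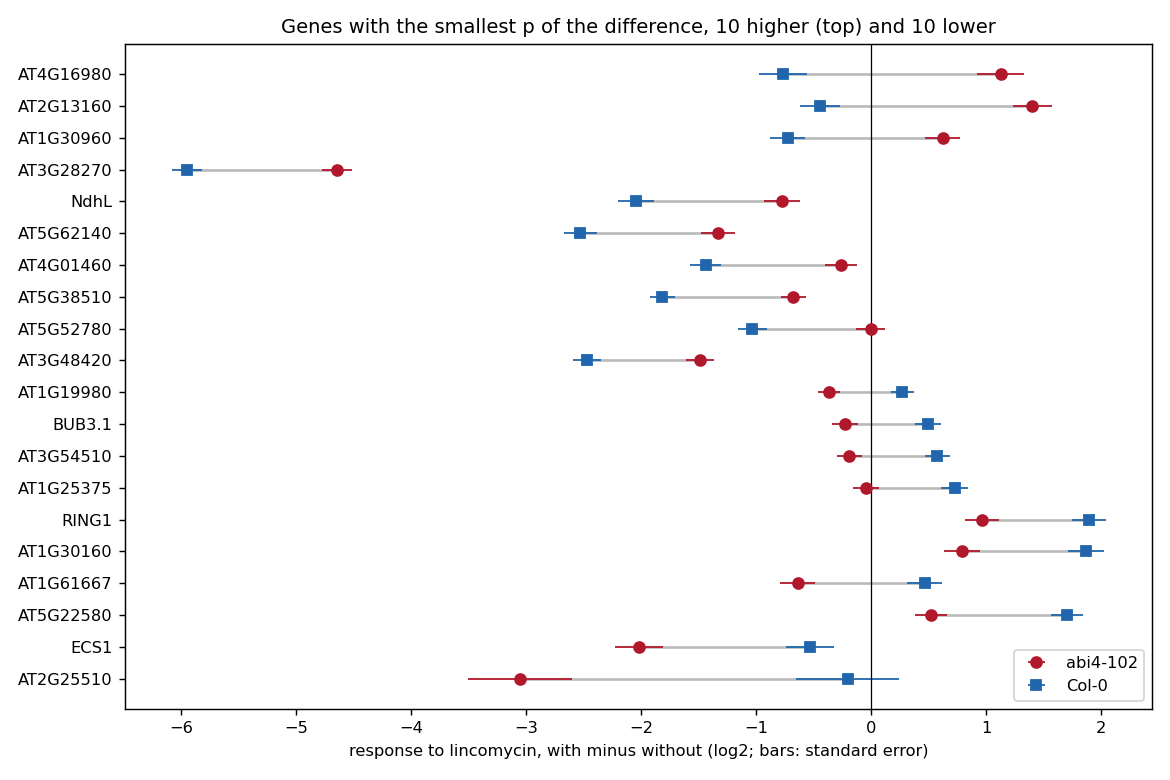
Response to lincomycin (log2, with minus without) in abi4-102 (circles) and Col-0 (squares) for the 20 genes with the smallest p of the difference, 10 above 0 at the top and 10 below 0. Only probe sets that name 1 gene alone were ranked. Bars are standard errors from limma. In the upper 10 genes every Col-0 response lies below 0, which the choice by the difference favours.

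AT3G28270 had the largest responses among these genes. Its values were 3.81 and 3.97 in abi4-102 with lincomycin, 8.72 and 8.35 in abi4-102 without it, 3.89 and 3.97 in Col-0 with lincomycin, and 9.90 and 9.86 in Col-0 without it. The arrays with lincomycin of both genotypes overlapped at a low level, while without lincomycin both abi4-102 arrays lay below both Col-0 arrays. It fell 25.0-fold in abi4-102 and 61.8-fold in Col-0, a difference of 1.31 ± 0.19 (SE, limma adjusted p 0.0767). The values on lincomycin lay near the dim end of the scale, where the annotated pseudogenes averaged 3.30. Both falls may therefore be understated, and no reading is made of the difference of response. A genotype difference on lincomycin (-0.04) could not be resolved. Without lincomycin abi4-102 was called lower than Col-0 by limma (log2 -1.35, adjusted p 0.000814).

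AT5G22580 mirrored that pattern with the opposite sign. Its values were 10.68 and 10.70 in abi4-102 with lincomycin, 10.10 and 10.24 in abi4-102 without it, 10.35 in both Col-0 arrays with lincomycin, and 8.69 and 8.61 in Col-0 without it. The Col-0 arrays without lincomycin stood apart below the other 6. It rose 1.44-fold in abi4-102 and 3.25-fold in Col-0, with a difference of -1.18 ± 0.20 (SE, limma adjusted p 0.135). The genotypes were called different without lincomycin by limma, abi4-102 being 2.86-fold higher (adjusted p 0.000506), and not with it (log2 0.34, adjusted p 0.393).

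The pseudogene AT2G13160 showed the reverse arrangement, with the genotypes apart on lincomycin. Its values were 6.14 and 6.25 in abi4-102 with lincomycin, 4.93 and 4.66 in abi4-102 without it, 4.26 and 4.22 in Col-0 with lincomycin, and 4.41 and 4.96 in Col-0 without it. Both abi4-102 arrays with lincomycin stood above the other 6, and without lincomycin the genotypes overlapped. It rose 2.64-fold in abi4-102 while the Col-0 response of -0.44 was not called by limma, and the difference was 1.85 ± 0.24 (SE, limma adjusted p 0.0767). The probe set is of the type that can bind several related sequences, so its signal may not come from this locus alone.

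AT5G38510 and AT5G52780 also separated on lincomycin, and AT5G38510 separated without it as well, in the opposite direction. AT5G38510 had 5.79 and 5.87 in abi4-102 with lincomycin, 6.62 and 6.39 in abi4-102 without it, 5.18 and 5.07 in Col-0 with lincomycin, and 6.94 and 6.95 in Col-0 without it. It fell 1.60-fold in abi4-102 and 3.52-fold in Col-0, and the difference was 1.14 ± 0.15 (SE, limma adjusted p 0.0767). AT5G52780 had 8.14 and 8.45 in abi4-102 with lincomycin, 8.36 and 8.24 in abi4-102 without it, 7.39 and 7.25 in Col-0 with lincomycin, and 8.36 and 8.35 in Col-0 without it. Only its 2 Col-0 arrays with lincomycin were low, and the abi4-102 response was -0.01 against -1.03 in Col-0. In both genes abi4-102 was called higher than Col-0 on lincomycin by limma, by 0.70 (adjusted p 0.0221) for AT5G38510 and by 0.97 (adjusted p 0.00648) for AT5G52780.

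AT1G30960 had responses of opposite sign in the genotypes, with 4.64 and 5.09 in abi4-102 with lincomycin, 4.19 and 4.29 in abi4-102 without it, 4.32 and 4.54 in Col-0 with lincomycin, and 5.25 and 5.06 in Col-0 without it. It rose 1.54-fold in abi4-102 and fell 1.65-fold in Col-0, a difference of 1.35 ± 0.22 (SE, limma adjusted p 0.123). AT4G16980 has 2 probe sets that disagree. The dim one, with a mean of 4.35, gave responses of 1.13 in abi4-102 and -0.77 in Col-0, a difference of 1.89. The bright one, with a mean of 11.48, gave responses of -0.18 in abi4-102 and -0.44 in Col-0, a difference of 0.26 with an unadjusted limma p of 0.237.

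Among differences below 0, ECS1, which encodes a protein described in responses to the bacterium Xanthomonas, was low in the mutant on lincomycin. Its values were 8.09 and 8.20 in abi4-102 with lincomycin, 10.22 and 10.11 in abi4-102 without it, 9.68 and 10.50 in Col-0 with lincomycin, and 10.61 and 10.64 in Col-0 without it. Both abi4-102 arrays with lincomycin lay below the other 6. It fell 4.06-fold in abi4-102, and its Col-0 response of -0.53 was not called by limma. The difference was -1.49 ± 0.30 (SE, limma adjusted p 0.167), and it ranged from -1.90, with an adjusted p of 0.0232 without Col-0 with lincomycin replicate 1, to -1.08, with an adjusted p of 0.180 without replicate 2. On lincomycin abi4-102 was called lower than Col-0 by 1.95 in limma (log2 -1.95, adjusted p 0.00174).

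AT3G54510 and AT2G25510 were low in the same group. AT3G54510 had 6.08 and 6.14 in abi4-102 with lincomycin, 6.27 and 6.33 in abi4-102 without it, 7.12 and 7.11 in Col-0 with lincomycin, and 6.49 and 6.59 in Col-0 without it. The abi4-102 response was -0.19, while it rose 1.49-fold in Col-0, and the difference was -0.77 ± 0.15 (SE, limma adjusted p 0.168). AT2G25510 gave the lowest difference of all named genes, -2.85 ± 0.64 (SE, limma adjusted p 0.210), from 5.21 and 4.17 in abi4-102 with lincomycin, 7.73 and 7.76 in abi4-102 without it, 6.35 and 7.94 in Col-0 with lincomycin, and 7.24 and 7.46 in Col-0 without it. The Col-0 arrays with lincomycin differed from each other by more than 1 unit, and leaving out single arrays moved the difference between -3.65 and -2.05.

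**Figure D2:**
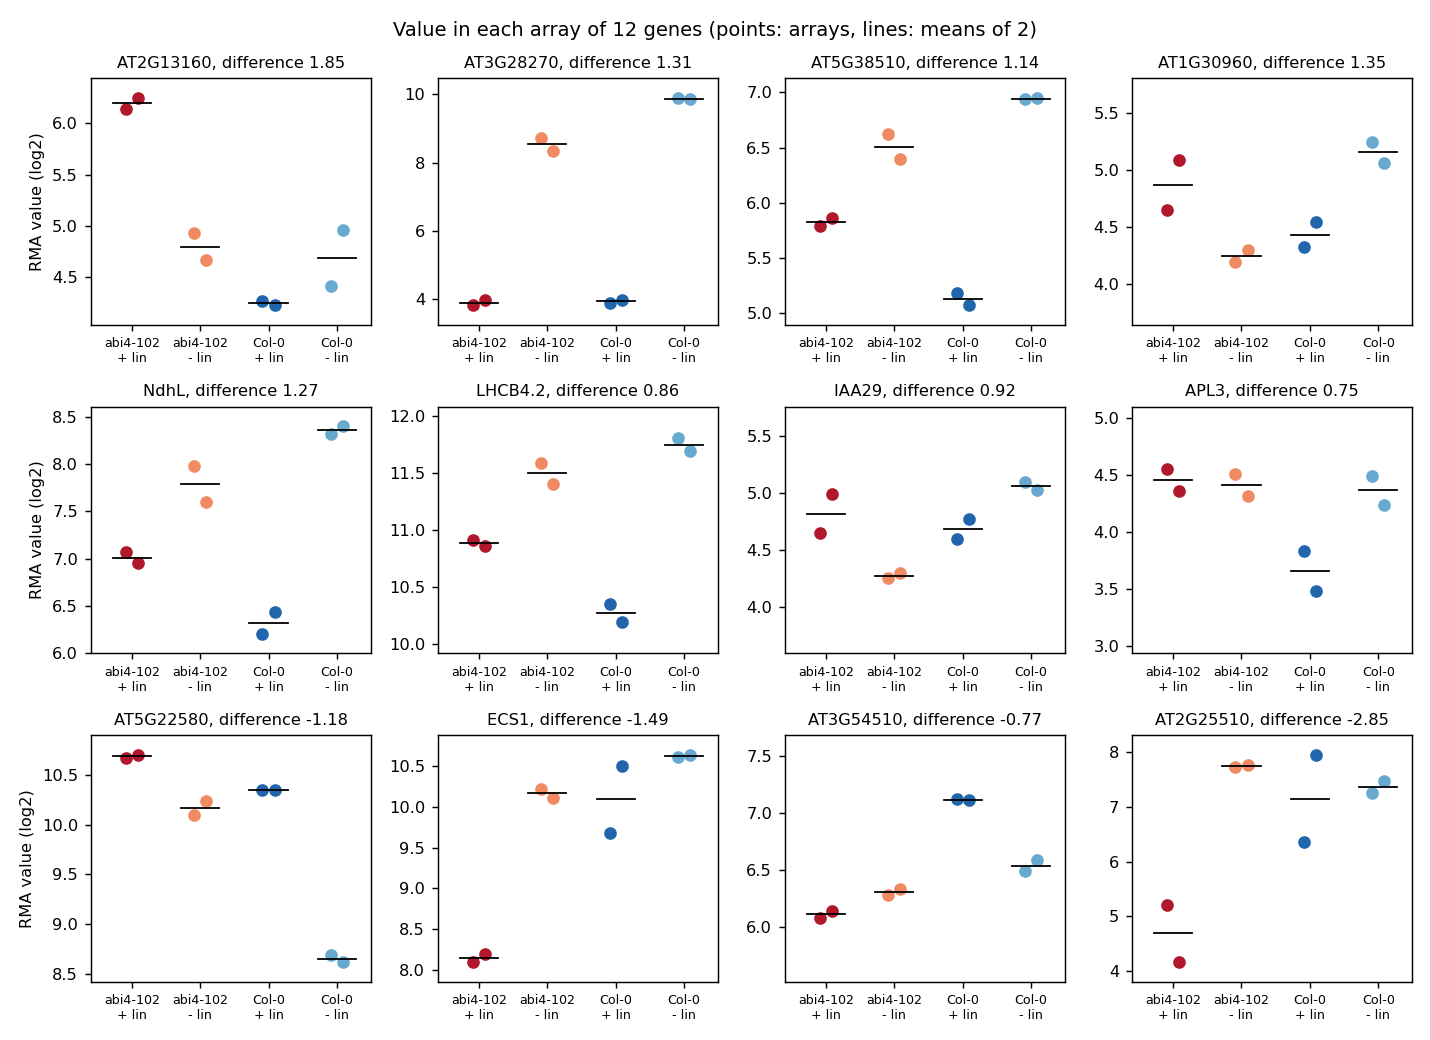
RMA value (log2) in each array of 12 genes, in the order abi4-102 with lincomycin, abi4-102 without, Col-0 with lincomycin, Col-0 without. Points are arrays and lines are means of 2. Limma called the genotypes different without lincomycin and not with it for AT3G28270 and AT5G22580. For AT2G13160 and ECS1 it called them different with lincomycin and not without it. The genotypes of AT5G22580 and ECS1 do not overlap on either medium.

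The contrast can be divided into its genotype comparisons, since the difference equals abi4-102 minus Col-0 with lincomycin less the same without it. With lincomycin limma called 104 probe sets (0.457%) at an adjusted p under 0.05, 71 higher and 33 lower in abi4-102. Without lincomycin it called 383 (1.68%), 208 higher and 175 lower. Both counts fell when single arrays of the comparison were left out. Leaving out any array also leaves fewer for the estimate of spread, so the falls cannot be credited to those arrays alone. The count with lincomycin was 55 and 65 without abi4-102 with lincomycin replicate 1 and replicate 2, and 66 and 46 without Col-0 with lincomycin replicate 1 and replicate 2. It was also 46 without either Col-0 array of the other medium. The count without lincomycin was 189 and 49 without abi4-102 replicate 1 and replicate 2 of that medium, and 58 and 39 without Col-0 replicate 1 and replicate 2 of that medium.

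Of the 2230 probe sets at an unadjusted p under 0.05 for the difference, 899 had the larger genotype difference with lincomycin and 1331 without it. Genotype differences of opposite sign on both media were found in 1831 of them, 82.1%, and in 46.0% of all probe sets. These descriptions, and the medians that follow, use the contrast that chose the probe sets. Among the 1296 with a difference above 0, the median response was 0.08 in abi4-102 and -0.53 in Col-0. Among the 934 below 0 it was -0.16 in abi4-102 and 0.38 in Col-0.

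Some transcripts were set apart by genotype on both media. QQS, an Arabidopsis gene that acts on starch content, had 7.37 and 7.59 in abi4-102 with lincomycin, 6.80 and 6.94 in abi4-102 without it, 3.67 and 3.73 in Col-0 with lincomycin, and 3.38 and 3.60 in Col-0 without it. All abi4-102 arrays stood above all Col-0 arrays, with ratios of 13.8-fold with lincomycin and 10.4-fold without it. The Col-0 values lay near the dim end of the scale, where the annotated pseudogenes averaged 3.30, so the ratios and the Col-0 response may be understated, and no reading is made of the QQS difference of response (0.40, limma adjusted p 0.481). PORB, which reduces protochlorophyllide to chlorophyllide in the light, fell 2.73-fold in abi4-102 and 2.51-fold in Col-0. Its difference was -0.12 (95% interval -0.59 to 0.35), although limma called it higher in abi4-102 by 0.82 with lincomycin (adjusted p 0.0490) and by 0.94 without it (adjusted p 0.0154). QQS was chosen after its values were seen.

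Lincomycin itself altered many probe sets in both genotypes. Limma called 2993 (13.2%) in abi4-102 and 3948 (17.4%) in Col-0, and the responses, which share no array, correlated across probe sets at 0.747, with the caution that probe sets are not independent. Gene sets were then chosen by the gun1-1 response, whose values do not enter the difference. The calls of that response used the spread of all 12 arrays, so the choice was not fully separate from the contrast. Probe sets that respond in Col-0 but not in gun1-1 are left out, so these sets do not stand for all responses to lincomycin. The 1115 probe sets that fell on lincomycin in gun1-1 had a median difference of 0.01, from median responses of -0.42 in abi4-102 and -0.36 in Col-0. The 1317 that rose in gun1-1 had a median difference of 0.03, with a median response of 0.48 in each genotype. For the 238 that fell at least 2-fold the median difference was 0.14, and for the 197 that rose at least 2-fold it was -0.04.

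Among nuclear genes of plastid function, differences above 0 predominated. In 8 lists of such genes 44 were measured, meaning that a probe set names that gene alone. The share of listed loci was 2 of 4 for the NDH complex, 5 of 32 for photosystems and electron transport and 3 of 20 for the antenna. It was 10 of 10 for other thylakoid proteins, 5 of 19 for the Calvin cycle and 4 of 13 for photorespiration. It was 8 of 26 for tetrapyrrole synthesis and 7 of 32 for plastid ribosomal proteins. The counts below do not cover the other loci. Of these 44, 0 passed the adjusted test for the difference. For 38 of 44 (86.4%) the difference was above 0, as it was for 50.7% of all probe sets. Their median difference was 0.36 beside 0.00 for all. The lists were chosen with earlier results of these data known, and genes read on the same 8 arrays are not independent. Responses separated in 29 (65.9%, against 25.5% of all), 28 of them above 0. Leaving out any 1 of the 8 arrays gave 36 to 39 genes above 0 and medians of 0.33 to 0.43.

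The response to lincomycin was called lower by limma in 30 of the 44 in abi4-102, beside 5.51% of all probe sets, and in 38 in Col-0, beside 7.95%. The median response was -0.70 in abi4-102 and -1.06 in Col-0, a 1.62-fold and a 2.08-fold fall. A call in one genotype and not in the other does not show a difference, which the contrast itself tests. In 28 genes (63.6%, against 24.1% of all probe sets) abi4-102 was higher than Col-0 with lincomycin and lower without it. The median genotype difference was 0.22 with lincomycin and -0.19 without it, so that both media contributed about equally.

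**Figure D3:**
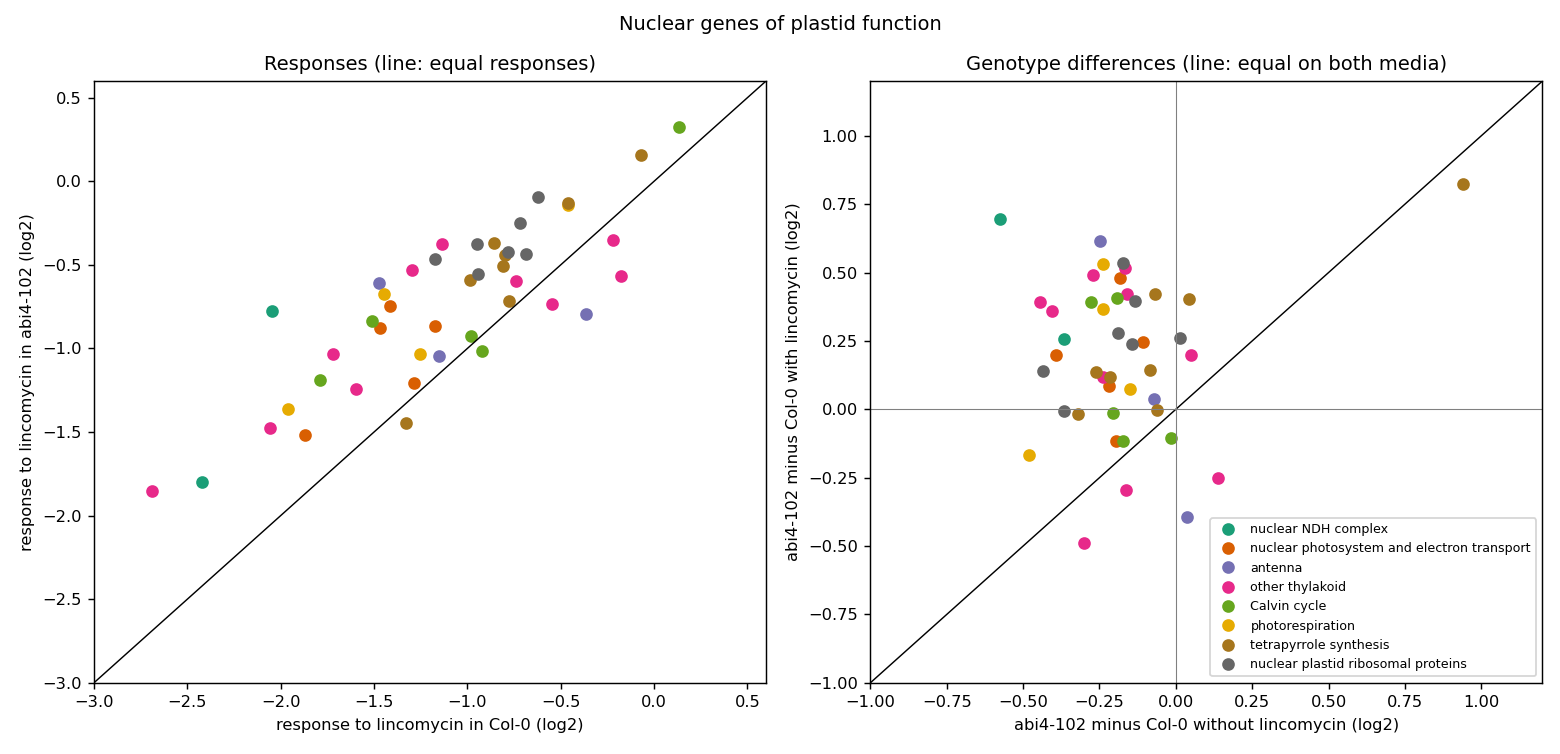
Left, response to lincomycin (log2) in abi4-102 against Col-0 for 44 nuclear genes of plastid function, coloured by list, with the line of equal responses. Right, abi4-102 minus Col-0 (log2) with lincomycin against the same without it. On the left 38 genes lie above the line, and on the right 28 lie in the upper left quadrant.

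The chloroplast NDH complex passes electrons around photosystem I into the plastoquinone pool. NdhL, a nuclear-encoded membrane subunit, had the smallest p among the 44 genes of these 8 lists. Its values were 7.07 and 6.95 in abi4-102 with lincomycin, 7.98 and 7.60 in abi4-102 without it, 6.20 and 6.43 in Col-0 with lincomycin, and 8.32 and 8.40 in Col-0 without it. With lincomycin both abi4-102 arrays lay above both Col-0 arrays, and without it both lay below. It fell 1.71-fold in abi4-102 and 4.14-fold in Col-0, a difference of 1.27 ± 0.22 (SE, limma adjusted p 0.148). NdhN, another nuclear subunit, fell 3.48-fold in abi4-102 and 5.36-fold in Col-0, with a difference of 0.62 (limma adjusted p 0.316). PIFI, a protein named for its role after illumination in NDH-dependent electron flow, had 7.57 and 7.62 in abi4-102 with lincomycin, 7.98 and 7.96 in abi4-102 without it, 7.15 and 7.06 in Col-0 with lincomycin, and 8.21 and 8.27 in Col-0 without it. It fell 1.29-fold in abi4-102 and 2.19-fold in Col-0 with no overlap of the responses, and the difference was 0.76 ± 0.14 (SE, limma adjusted p 0.149).

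Paralogues of the minor antenna protein CP29, which binds chlorophyll at photosystem II, did not share 1 value. LHCB4.2 had 10.91 and 10.86 in abi4-102 with lincomycin, 11.59 and 11.40 in abi4-102 without it, 10.35 and 10.19 in Col-0 with lincomycin, and 11.80 and 11.69 in Col-0 without it. It fell 1.53-fold in abi4-102 and 2.78-fold in Col-0, a difference of 0.86 ± 0.16 (SE, limma adjusted p 0.149), and on lincomycin it was called higher in abi4-102 by limma (log2 0.61, adjusted p 0.0481). LHCB4.1 fell 2.06-fold in abi4-102 and 2.23-fold in Col-0, with a difference of 0.11 (95% interval -0.32 to 0.54). LHCB4.3 had a response of -0.79 in abi4-102 and -0.36 in Col-0, with a difference of -0.43 (95% interval -0.81 to -0.05, limma adjusted p 0.447). The differences between paralogues were not tested. The median of the 3, 0.11, changed sign with single arrays left out (range -0.05 to 0.26) and with quantile normalization (-0.01).

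Nuclear subunits of the photosystems and of electron transport had a probe set that names 1 gene for 5 of 32 listed loci. All 5 had a difference above 0, with a median of 0.35 (0.28 to 0.43 with single arrays left out). Limma called the fall on lincomycin of all 5 in both genotypes, beside 5.51% of all probe sets in abi4-102 and 7.95% in Col-0. PSBW, a small photosystem II subunit, had 0.66, PSBY, another, had 0.59, and PSAE-1, a stromal subunit of photosystem I, had 0.35. ATPC1, the gamma subunit of the ATP synthase, had 0.31. PSAN, on the lumenal side of photosystem I, fell 2.30-fold in abi4-102 and 2.44-fold in Col-0, with a difference of 0.08 (95% interval -0.27 to 0.44). PSBY illustrates the group, with 10.49 and 10.54 in abi4-102 with lincomycin, 11.50 and 11.29 in abi4-102 without it, 10.32 in both Col-0 arrays with lincomycin, and 11.81 and 11.76 in Col-0 without it. Its genotypes separated on both media, in opposite directions.

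Of 10 other thylakoid proteins, 7 had a difference above 0 and the median was 0.47 (0.42 to 0.57 with single arrays left out). CaS, a calcium-sensing thylakoid protein, fell 3.61-fold in abi4-102 and 6.46-fold in Col-0, a difference of 0.84. TROL, which anchors ferredoxin-NADP reductase to the thylakoid, fell 1.44-fold in abi4-102 and 2.45-fold in Col-0, a difference of 0.76. TAPX, the thylakoid ascorbate peroxidase, had 0.58. The 3 below 0 were TAAC, a carrier of ATP and ADP in the thylakoid membrane, at -0.39, AT4G38100 at -0.19 and NDC1, a plastid NAD(P)H dehydrogenase, at -0.13.

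In the Calvin cycle, 4 of 5 genes were above 0 with a median of 0.19 (0.17 to 0.25). That median was the value of AT5G64380, which did not fall. Its responses were 0.32 in abi4-102 and 0.13 in Col-0, neither called by limma. PRK, phosphoribulokinase, had 10.14 and 10.47 in abi4-102 with lincomycin, 11.17 and 11.10 in abi4-102 without it, 9.84 and 9.98 in Col-0 with lincomycin, and 11.45 and 11.38 in Col-0 without it. It fell 1.78-fold in abi4-102 and 2.84-fold in Col-0, a difference of 0.67 ± 0.18 (SE, limma adjusted p 0.266). SBPASE, the sedoheptulose bisphosphatase, had 0.60, whereas RCA, the activase of Rubisco, had 0.06 and PGK2, a phosphoglycerate kinase, had -0.09. The last pair fell in both genotypes.

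Photorespiration, which returns carbon lost through Rubisco's reaction with oxygen, had 4 of 4 genes above 0 and a median of 0.46 (0.37 to 0.55). GLDT, the T protein of glycine decarboxylase, had 9.65 and 9.62 in abi4-102 with lincomycin, 10.47 and 10.16 in abi4-102 without it, 9.07 and 9.14 in Col-0 with lincomycin, and 10.60 and 10.49 in Col-0 without it. On lincomycin its abi4-102 arrays lay above its Col-0 arrays and on plain medium below them, and the difference was 0.77 ± 0.19 (SE, limma adjusted p 0.244). GLDH3, an H protein of the same complex, had 0.60. GLYK, glycerate kinase, had 0.32 and HPR, hydroxypyruvate reductase, had 0.22.

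Tetrapyrrole synthesis makes haem and chlorophyll, and its intermediates have been discussed as plastid signals. Of 8 genes 7 were above 0, with a median of 0.32 (0.24 to 0.38), PORB being the exception. HEME1, a uroporphyrinogen decarboxylase, had 6.30 and 6.56 in abi4-102 with lincomycin, 6.85 and 6.76 in abi4-102 without it, 6.02 and 6.01 in Col-0 with lincomycin, and 6.86 and 6.88 in Col-0 without it. On lincomycin both abi4-102 arrays lay above both Col-0 arrays, and the difference was 0.49 ± 0.19 (SE, limma adjusted p 0.439). CHLI2, a subunit of magnesium chelatase, had 0.40, HEME2 had 0.36, GSA1, which makes aminolevulinic acid, had 0.33 and CHLM, a methyltransferase of the chlorophyll branch, had 0.30. HEMA2, a glutamyl-tRNA reductase, had 0.23 and HEMB1, which condenses aminolevulinic acid, had 0.06.

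Nuclear-encoded plastid ribosomal proteins belong to the machinery that lincomycin inhibits. Of 32 listed loci 7 had a probe set that names 1 gene. All 7 had a difference above 0, from 0.25 to 0.71, with a median of 0.47 (0.39 to 0.54). Limma called the fall on lincomycin of 1 in abi4-102, beside 5.51% of all probe sets, and of all 7 in Col-0, beside 7.95%, and the test of the difference passed for 0. PRPL19 had 8.41 and 8.57 in abi4-102 with lincomycin, 9.04 and 8.87 in abi4-102 without it, 7.88 and 8.03 in Col-0 with lincomycin, and 9.01 and 9.24 in Col-0 without it. Its Col-0 arrays with lincomycin were the lowest of the 8, and the difference was 0.71 ± 0.20 (SE, limma adjusted p 0.290). PRPS10 followed with 0.57, PRPL29 with 0.53, PRPL3 with 0.47, PRPL17 with 0.38, PRPS6 with 0.36 and PRPL5 with 0.25.

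**Figure D4:**
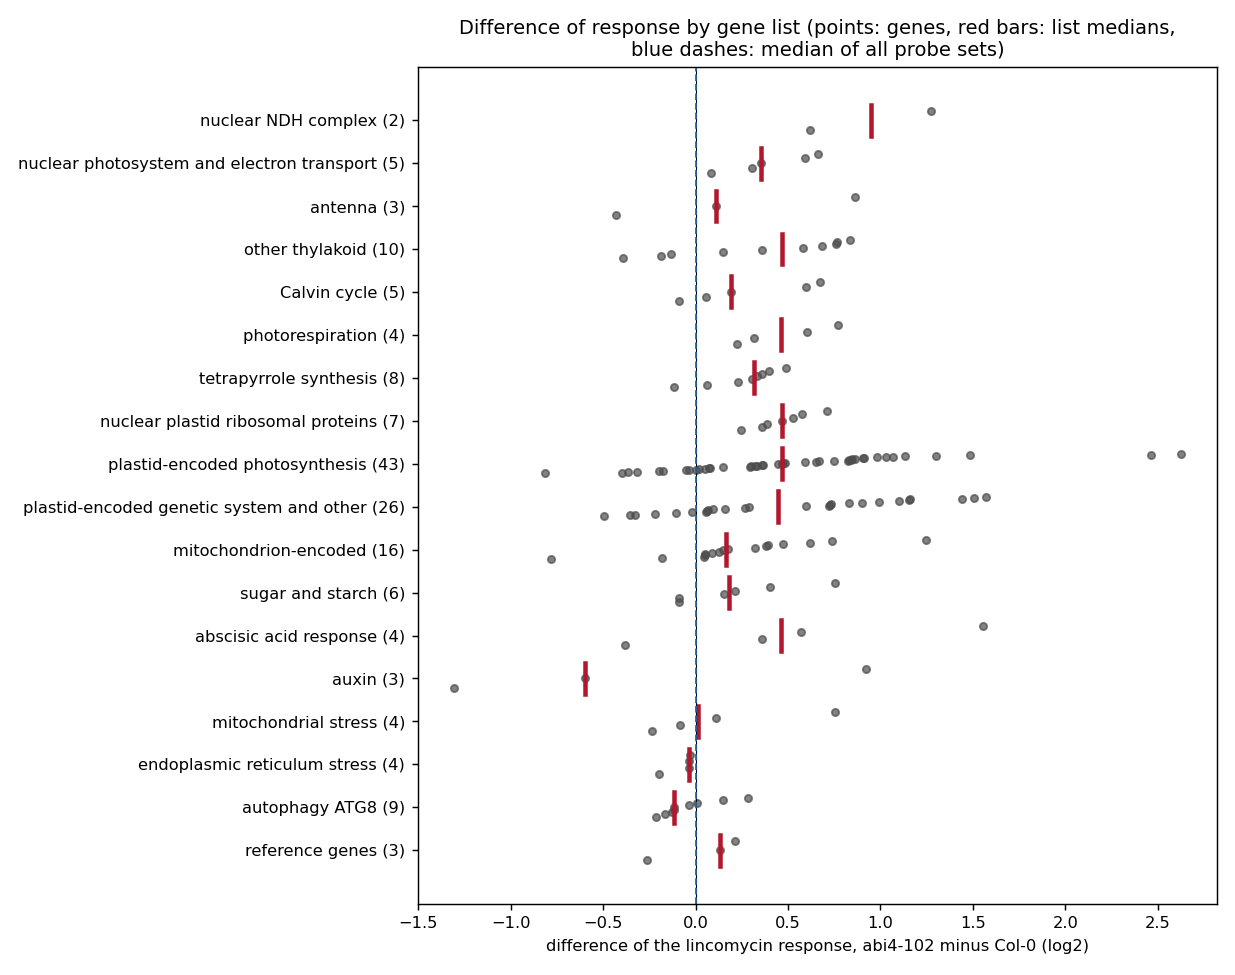
Difference of the lincomycin response, abi4-102 minus Col-0 (log2), for the members of 18 gene lists. Points are genes, red bars list medians and the dashed line the median of all probe sets, at 0.00. The number of measured genes stands in brackets. All 7 measured plastid ribosomal proteins and all 5 measured photosystem and electron transport genes lie above 0.

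Genes of the plastid genome itself are transcribed inside the organelle, by a plastid-encoded polymerase that serves mostly photosynthesis genes and by a nuclear-encoded one that serves mostly housekeeping genes. On the 43 measured photosynthesis genes of the plastid, the median difference was 0.47, with 35 above 0 and separated responses in 8 (18.6%, beside 25.5% of all). Their SE was large, with a median of 0.38 beside 0.20. The median level of these genes was 8.58 and 8.76 in abi4-102 with lincomycin, 9.60 and 9.48 in abi4-102 without it, 8.62 and 8.0 in Col-0 with lincomycin, and 9.41 and 9.52 in Col-0 without it. Col-0 with lincomycin replicate 2 was the lowest array, and without it the median difference was 0.20. Between 26 and 37 genes were above 0 as single arrays were left out.

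petD, subunit IV of the cytochrome b6f complex, gave the largest difference above 0 among named genes, 2.63 ± 0.75 (SE, limma adjusted p 0.290). Its values were 6.37 and 7.09 in abi4-102 with lincomycin, 5.45 and 5.82 in abi4-102 without it, 6.24 and 4.52 in Col-0 with lincomycin, and 6.20 and 7.62 in Col-0 without it. Col-0 replicates differed by more than 1 unit on both media. psbB, which encodes the CP47 antenna protein of photosystem II, had 8.97 and 9.96 in abi4-102 with lincomycin, 9.36 and 9.62 in abi4-102 without it, 9.49 and 6.08 in Col-0 with lincomycin, and 9.86 and 10.68 in Col-0 without it. Col-0 with lincomycin replicate 2 stood far below the other 7 arrays. The difference was 2.46 (95% interval -0.02 to 4.95), and it turned on that pair of arrays. It was 0.75 with a limma adjusted p of 0.721 without Col-0 with lincomycin replicate 2, and 4.17 with a limma adjusted p of 0.0491 without replicate 1. psaA, a core protein of photosystem I, had 0.91 and rbcL, the large subunit of Rubisco, had 0.83. In the other direction psbC, the CP43 antenna protein, had -0.81 (limma adjusted p 0.460), with 7.72 and 8.11 in abi4-102 with lincomycin, 10.28 and 9.73 in abi4-102 without it, 8.62 and 8.13 in Col-0 with lincomycin, and 9.76 and 9.54 in Col-0 without it. On lincomycin its abi4-102 arrays lay below its Col-0 arrays, but the nearest were 8.11 and 8.13. Limma called no genotype difference there (log2 -0.46, adjusted p 0.524). Its genotypes overlapped without lincomycin, and its responses overlapped.

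Of the 26 plastid genes of the genetic system and other functions, limma called a rise on lincomycin in 19 in abi4-102 and in 14 in Col-0, beside 7.65% and 9.4% of all probe sets, and a fall in 1 in each genotype. Their median difference was 0.45, with 20 above 0. The median level was 10.26 and 10.15 in abi4-102 with lincomycin, 9.0 and 8.63 in abi4-102 without it, 9.71 and 9.89 in Col-0 with lincomycin, and 8.41 and 8.88 in Col-0 without it. The list median was higher in abi4-102 with lincomycin than in any other array. The value hung on the Col-0 arrays without lincomycin, since the median difference was 0.81 without its replicate 1 and 0.13 without its replicate 2. rpl14, a ribosomal protein, had 10.50 and 10.27 in abi4-102 with lincomycin, 7.43 and 6.95 in abi4-102 without it, 8.96 and 9.30 in Col-0 with lincomycin, and 7.08 and 7.11 in Col-0 without it. It rose 9.16-fold in abi4-102 and 4.12-fold in Col-0, a difference of 1.15 ± 0.33 (SE, limma adjusted p 0.294), with both abi4-102 arrays highest on lincomycin. rpl20 rose 6.60-fold in abi4-102 and 2.22-fold in Col-0, a difference of 1.57. rps2, another ribosomal protein, had -0.35.

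The 16 mitochondrion-encoded genes had a median difference of 0.16, with 14 above 0. That median was 0.39 and 0.02 without Col-0 with lincomycin replicate 1 and replicate 2, and 0.45 and 0.02 without Col-0 without lincomycin replicate 1 and replicate 2. Their level did not order the groups: the list medians were 4.98 and 5.09 in abi4-102 with lincomycin, 5.00 and 4.78 in abi4-102 without it, 5.24 and 4.83 in Col-0 with lincomycin, and 4.85 and 5.42 in Col-0 without it. nad4, a subunit of respiratory complex I, was an exception with -0.78 ± 0.23 (SE, limma adjusted p 0.308). It had 7.42 and 7.28 in abi4-102 with lincomycin, 6.97 and 7.04 in abi4-102 without it, 7.08 and 6.99 in Col-0 with lincomycin, and 5.77 and 6.05 in Col-0 without it, the last pair standing below the other 6 arrays.

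**Figure D5:**
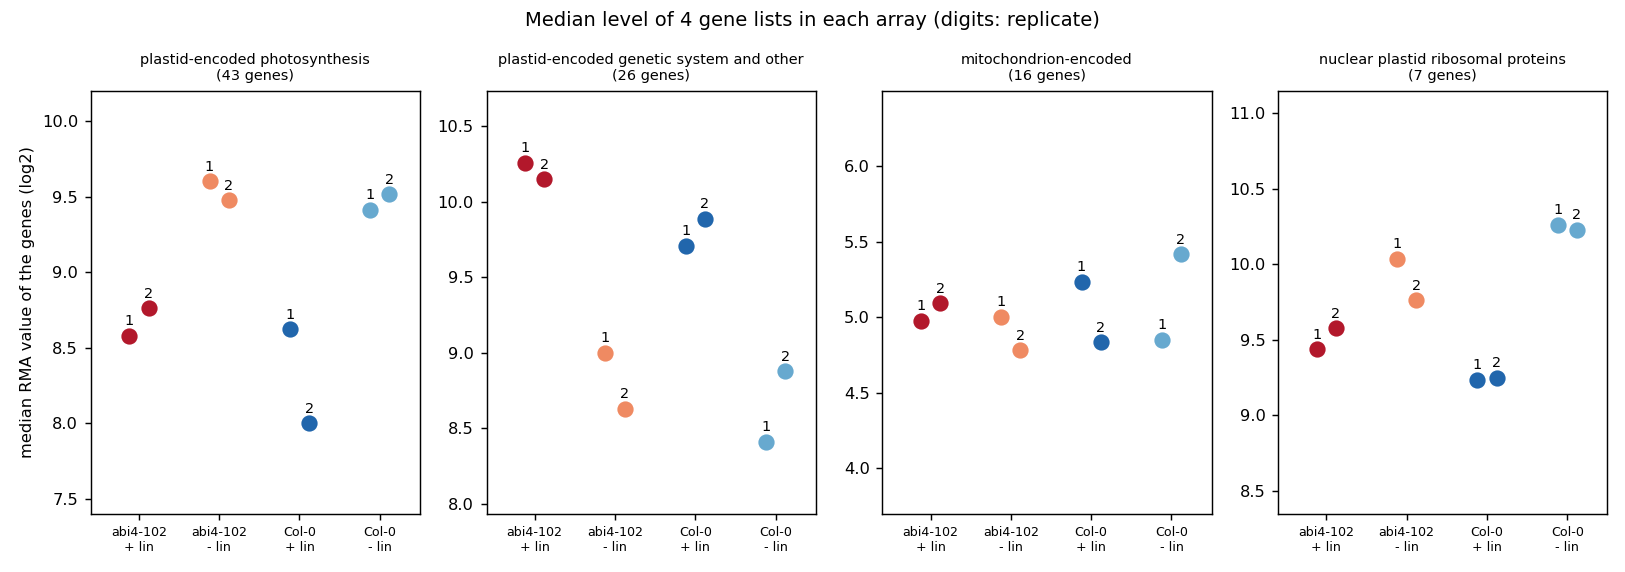
Median RMA value (log2) of 4 gene lists in each array, with the replicate number above each point. For the 43 plastid-encoded photosynthesis genes the Col-0 arrays with lincomycin lie at 8.62 and 8.0, whereas for the 7 nuclear plastid ribosomal proteins they lie at 9.23 and 9.25.

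Abscisic acid responses are the setting in which ABI4 was first described. Only 4 of the 28 listed loci had a probe set that names 1 gene. COR15A, a cold and abscisic acid induced chloroplast protein, had 5.38 and 4.56 in abi4-102 with lincomycin, 7.20 and 5.63 in abi4-102 without it, 5.93 and 3.99 in Col-0 with lincomycin, and 8.08 and 7.84 in Col-0 without it. The abi4-102 response of -1.44 was not called by limma, and it fell 7.99-fold in Col-0. In 3 groups the replicates lay far apart, and the difference was 1.55 ± 0.87 (SE, limma adjusted p 0.620), between 0.59 and 2.52 with single arrays left out. The dehydrin LTI30 had 0.57, COR15B had 0.36 and the dehydrin COR47 had -0.38. The median of the 4 was 0.46, but 0.92 and 0.0052 without Col-0 with lincomycin replicate 1 and replicate 2, and 0.22 and 0.70 without abi4-102 with lincomycin replicate 1 and replicate 2.

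Sugar and starch genes included APL3, a large subunit of ADP-glucose pyrophosphorylase, long used as a sugar-responsive reporter. Its values were 4.55 and 4.36 in abi4-102 with lincomycin, 4.51 and 4.32 in abi4-102 without it, 3.83 and 3.48 in Col-0 with lincomycin, and 4.49 and 4.24 in Col-0 without it. Only the Col-0 arrays with lincomycin were low, near the dim end of the scale, where the annotated pseudogenes averaged 3.30. The Col-0 fall may therefore be understated, and the size of the difference is uncertain. The abi4-102 response was 0.04, APL3 fell 1.64-fold in Col-0, and the difference was 0.75 ± 0.21 (SE, limma adjusted p 0.284). On lincomycin APL3 was called higher in abi4-102 by limma (log2 0.80, adjusted p 0.0499). The 6 measured members had a median of 0.18, with 4 above 0, which ranged from 0.03 to 0.30 as single arrays were left out.

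Auxin genes diverged in sign. IAA29, an Aux/IAA repressor of auxin response, had 4.65 and 4.99 in abi4-102 with lincomycin, 4.25 and 4.30 in abi4-102 without it, 4.60 and 4.78 in Col-0 with lincomycin, and 5.10 and 5.03 in Col-0 without it. It rose 1.46-fold in abi4-102, the Col-0 response was -0.38, and the responses ran in opposite directions in every pairing, for a difference of 0.92 ± 0.18 (SE, limma adjusted p 0.167). Without lincomycin it was called lower in abi4-102 by limma (log2 -0.79, adjusted p 0.0157). GH3.5 and GH3.3, which conjugate auxin to amino acids, had differences of -0.60 and -1.31. GH3.3 had 5.66 and 5.90 in abi4-102 with lincomycin, 4.80 and 4.66 in abi4-102 without it, 5.61 and 6.75 in Col-0 with lincomycin, and 3.85 and 3.80 in Col-0 without it. Its response of 1.05 in abi4-102 was not called by limma, and it rose 5.11-fold in Col-0.

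Stress and turnover lists lay near 0. The 4 genes of the endoplasmic reticulum stress list, among them the transcription factor BZIP60 at -0.03, had differences from -0.20 to -0.03, and the 9 ATG8 genes, whose products coat autophagosomes, had -0.21 to 0.28. In the mitochondrial stress list the median was 0.01, and UPOX was the exception with 6.39 and 6.81 in abi4-102 with lincomycin, 4.09 and 4.02 in abi4-102 without it, 5.93 and 6.23 in Col-0 with lincomycin, and 4.26 and 4.32 in Col-0 without it. UPOX, a marker of mitochondrial oxidative stress, rose 5.83-fold in abi4-102 and 3.45-fold in Col-0, with a difference of 0.75 ± 0.28 (SE, limma adjusted p 0.433). Large enzyme families were centred on 0 as well, the 47 UDP-glycosyltransferases at a median of 0.02, the 26 cytochromes P450 at 0.01, the 11 tau-class glutathione transferases at -0.10 and the 27 expansins and xyloglucan hydrolases at -0.10. Except for the expansins and hydrolases, the medians of all these lists changed sign when some single array was left out. GSTU20 stood apart among the transferases at -0.90 ± 0.22 (SE, limma adjusted p 0.241). The 3 reference genes had differences from -0.26 to 0.22.

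Annotated pseudogenes, 989 in number and mostly dim with a mean level of 3.30, had a small median of 0.07 with 656 (66.3%) above 0. Separated responses were found in 221 (22.3%, beside 25.5% of all), 175 of them above 0. The median kept between 0.05 and 0.10 over the arrays left out.

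Several of the largest estimates had the widest spread. AT2G43620 had 8.59 and 7.56 in abi4-102 with lincomycin, 7.59 and 8.70 in abi4-102 without it, 8.20 and 9.29 in Col-0 with lincomycin, and 6.12 and 5.94 in Col-0 without it. Its difference of -2.79 ± 1.19 (SE, limma adjusted p 0.473) rested on the low Col-0 pair without lincomycin. BCAT4, an aminotransferase of methionine-derived glucosinolate synthesis, had -1.96 ± 0.55 (SE, limma adjusted p 0.284). ICL, isocitrate lyase of the glyoxylate cycle that feeds on seed lipid, had 5.68 and 5.91 in abi4-102 with lincomycin, 7.23 and 6.28 in abi4-102 without it, 7.25 and 8.06 in Col-0 with lincomycin, and 7.20 and 6.82 in Col-0 without it. The abi4-102 arrays with lincomycin were the lowest of the 8, and the difference was -1.60 ± 0.60 (SE, limma adjusted p 0.426). AT3G16670 had -1.76, with a range of -2.57 to -0.95 over the arrays left out. Both ends came from Col-0 with lincomycin, the limma adjusted p being 0.0491 without its replicate 1 and 0.416 without its replicate 2.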

How the data were processed

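The deposited table holds log2 values that the authors made with RMA, per the submitters' processing notes, from Affymetrix ATH1 arrays. The version of RMA is not given in the sources used here. RMA equalises the arrays' distributions and shrinks differences between dim probe sets, and the number of arrays limits the precision.

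Of its 22810 probe sets, 64 are array controls and were not used. In the array annotation 13513 probe sets name 1 gene, 503 several and 8730 are unnamed here, and 13436 matched the gene table of TAIR10.1. All 12 arrays were fitted with 6 group means in limma 3.58.1 (R 4.3.3), with 6 residual degrees of freedom, checked on simulated data. A call is a two-sided Benjamini-Hochberg adjusted p under 0.05 over 22746 probe sets. A listed gene with several probe sets was read from the brightest.

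The members, lists and rules were chosen with earlier results of these data known. Named genes were taken from probe sets that name 1 gene alone. They are the 10 smallest p and 5 largest differences each way and genes called with the trend. The smallest p each way in each list was added. Other list members were named to complete their lists. Of 278 loci in the lists written by hand, 83 were measured, which here means that a probe set names that gene alone. The other loci may have probe sets that are unnamed here or name several genes. Replicate numbers showed no consistent pairing of the samples. Alternatives were the replicate block, the 8 arrays alone, a trend with a robust prior, array weights, centring, quantile normalization, brighter probe sets, probe sets of 1 gene, a size threshold and leaving out each array.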

Additional observations from a re-analysis of the deposited data

How the results depend on the processing

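With 2 arrays a group, many results moved when single arrays were left out, which also leaves fewer arrays for the estimate of spread. For the difference of response, 0 probe sets were called, 9 with the trend and robust prior and 0 to 4 with single arrays left out. The number at an unadjusted p under 0.05 was 2230, 1197 when only probe sets of 1 gene were tested, which are fewer, and 1219 to 2442 with single arrays left out. Calls between genotypes with lincomycin numbered 104, and 67 with array weights, 65 with probe sets of 1 gene, 62 in the upper 60% by mean, 54 with a log2 size of at least 1, and 46 to 96 with single arrays left out. Without lincomycin they numbered 383, and 1602 with array weights, 134 with probe sets of 1 gene, 121 with a log2 size of at least 1, and 39 to 409 with single arrays left out. The cause of the shift under array weights was not tested. With the replicate number as a block, 0, 91 and 358 probe sets were called for the difference, with lincomycin and without lincomycin, and 2221 had an unadjusted p under 0.05. Deviations of same-numbered arrays correlated at -0.283 to 0.281 over 15 pairs of groups, 3 of them over 0.1. The numbers thus showed no consistent pairing, and a batch that does not follow them was not tested. Of 69 named genes, 3 changed sign with single arrays left out, FAMA (-0.30 to 0.035), APL4 (-0.19 to 0.0066) and PORB (-0.25 to 0.018). Of 26 list medians, 9 changed sign under some alternative.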
